A study of Mus musculus with 6 samples.

Results

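Levels of the miR-29 family were compared between Cdr1as-/- mice and control littermates in mucosa of the small intestine, using a microarray for small RNAs. The family comprises 7 mature strands, namely the guide strands mmu-miR-29a-3p, mmu-miR-29b-3p, and mmu-miR-29c-3p and the passenger strands mmu-miR-29a-5p, mmu-miR-29b-1-5p, mmu-miR-29b-2-5p, and mmu-miR-29c-5p, written without the species prefix where it is plain. All 7 were found by name among the 1831 mature miRNAs of the deposited table of normalized log2 levels. The study asked whether loss of Cdr1as, a circular RNA transcribed antisense to the Cdr1 gene, changes miRNA levels in the mucosa, and miR-29b was among the miRNAs that it also measured by Q-PCR.

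The control group held 3 wild-type mice (WT-1, WT-2, and WT-3) and the other group 3 Cdr1as-/- mice (KO-1, KO-2, and KO-3), each on 1 single-colour array. In the knockout strain, the Cdr1as locus had been deleted in the germline with CRISPR/Cas9 on the C57BL/6J background, so the circular RNA is missing from every cell type and not from the epithelium alone. The labels give no injury or treatment for these 6 samples, the study's methods state that its animals were fasted before experiments, and their age and sex are not given in the sources used here. The array has no probe for Cdr1as, so the genotype could not be checked on it. The labels name small intestine as the tissue and the study's methods the mucosa, which contains connective tissue, muscle fibres, and immune cells beside the epithelium.

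MicroRNAs are cut from hairpin precursors by Drosha and Dicer. One strand of the resulting duplex, the guide, is kept in an Argonaute protein and directs it to messenger RNAs that pair with the seed near the 5′ end of the miRNA, while the passenger strand is mostly degraded. The 3p strands of miR-29 are the guides. They are known to repress transcripts of collagens and other matrix proteins, of DNA methyltransferases, and of the anti-apoptotic protein Mcl1, and low miR-29 accompanies fibrosis in several organs.

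The mature sequences are shown because the 3 guides carry 1 seed and differ in few bases, whereas the passenger strands are more diverse. They are from RefSeq (GRCm38.p6), match the sequences in the deposited table for all 7 strands, and are written 5′ to 3′ with the seed, bases 2 to 8, in capitals.
miR-29a-3p: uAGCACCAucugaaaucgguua
miR-29b-3p: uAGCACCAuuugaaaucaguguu
miR-29c-3p: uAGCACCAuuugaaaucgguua
miR-29a-5p: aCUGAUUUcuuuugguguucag
miR-29b-1-5p: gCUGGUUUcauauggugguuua
miR-29b-2-5p: cUGGUUUCacaugguggcuuagauu
miR-29c-5p: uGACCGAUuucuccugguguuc

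Among the 1831 miRNAs, the seed AGCACCA was found in these 3 guides and in no other miRNA. Each of the 4 passenger strands had a seed of its own that 0 other miRNAs shared. Counted from the 5′ end, miR-29a-3p differs from miR-29c-3p by C10U alone. It differs from miR-29b-3p by C10U, G18A, U21G, and A22U, and miR-29b-3p is 1 base longer, at 23 bases. From miR-29b-3p to miR-29c-3p the substitutions are A18G, G21U, and U22A. Each strand was measured by 5 probes whose sequences the files used here do not give, and how well they separate guides that differ by so few bases was not tested.

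The family is encoded in 2 pairs of genes. Mir29a (chr6:31062660-31062747) and Mir29b-1 (chr6:31063023-31063093) lie on the minus strand of chromosome 6, 275 bases apart, and no other annotated gene overlaps either. Mir29b-2 (chr1:195037040-195037120) and Mir29c (chr1:195037547-195037634) lie on the plus strand of chromosome 1, 426 bases apart and inside the long noncoding RNA gene A330023F24Rik. Since the Mir29b-1 and Mir29b-2 precursors release the same guide, a level of miR-29b-3p is the sum over both genes, and only the passenger strands tell the genes apart. Both hairpins are shown for this reason, with the mature strands in capitals, the 5p strand first.
Mir29b-1: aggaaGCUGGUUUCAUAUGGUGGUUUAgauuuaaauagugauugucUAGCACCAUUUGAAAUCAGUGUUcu
Mir29b-2: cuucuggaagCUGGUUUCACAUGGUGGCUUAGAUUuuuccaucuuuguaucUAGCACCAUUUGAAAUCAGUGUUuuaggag

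One array stood apart from the others, and the direction of the group difference of each guide strand turns with it. Before any scaling between arrays, miRNA probes had a median signal of 236 on WT-3 but of 8.75 to 29.2 on the others. Of these others KO-1 was highest, and the next was KO-2 at 14.1. The summed signal of a separate class of small RNA probes, marked TRF, differed by no more than 1.31-fold between any of the 6 arrays. Scanned with 4 of the other arrays, WT-3 had the lowest array weight in limma, 0.0758, against 0.583 to 3.81. Each comparison is therefore given with all 6 arrays and without WT-3, a choice made after the values were known. The knockout group holds 3 mice either way, and without WT-3 the littermates are 2.

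The deposited levels of the guide strands lay close together on 5 arrays of both groups and were far lower on WT-3, which deviated by -4.06 to -4.44 log2 units from the mean of the other littermates. The levels quoted here are log2 values that the authors had scaled between arrays, and in whole mucosa a lower level may come from fewer cells of a type or from less RNA per cell, which cannot be told apart. For mmu-miR-29b-3p they were 11.50, 11.42, and 7.33 in WT-1 to WT-3 and 11.06, 11.84, and 11.06 in KO-1 to KO-3. WT-1 and WT-2 lay inside the range of the knockout arrays, and the deviation of WT-3 was -4.13. For mmu-miR-29a-3p, the guide made from the gene next to Mir29b-1, the levels were 12.06, 11.77, and 7.86 in the littermates and 11.42, 12.25, and 11.38 in the knockouts. For mmu-miR-29c-3p, the guide made from the gene next to Mir29b-2, they were 11.48, 11.23, and 6.92 in the littermates and 10.70, 11.65, and 10.89 in the knockouts. The 3 guides ranked the arrays alike, with KO-2 highest, WT-1 and WT-2 next, KO-1 and KO-3 lower, and WT-3 lowest, so that the groups overlapped for each of them.

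**Figure D1:**
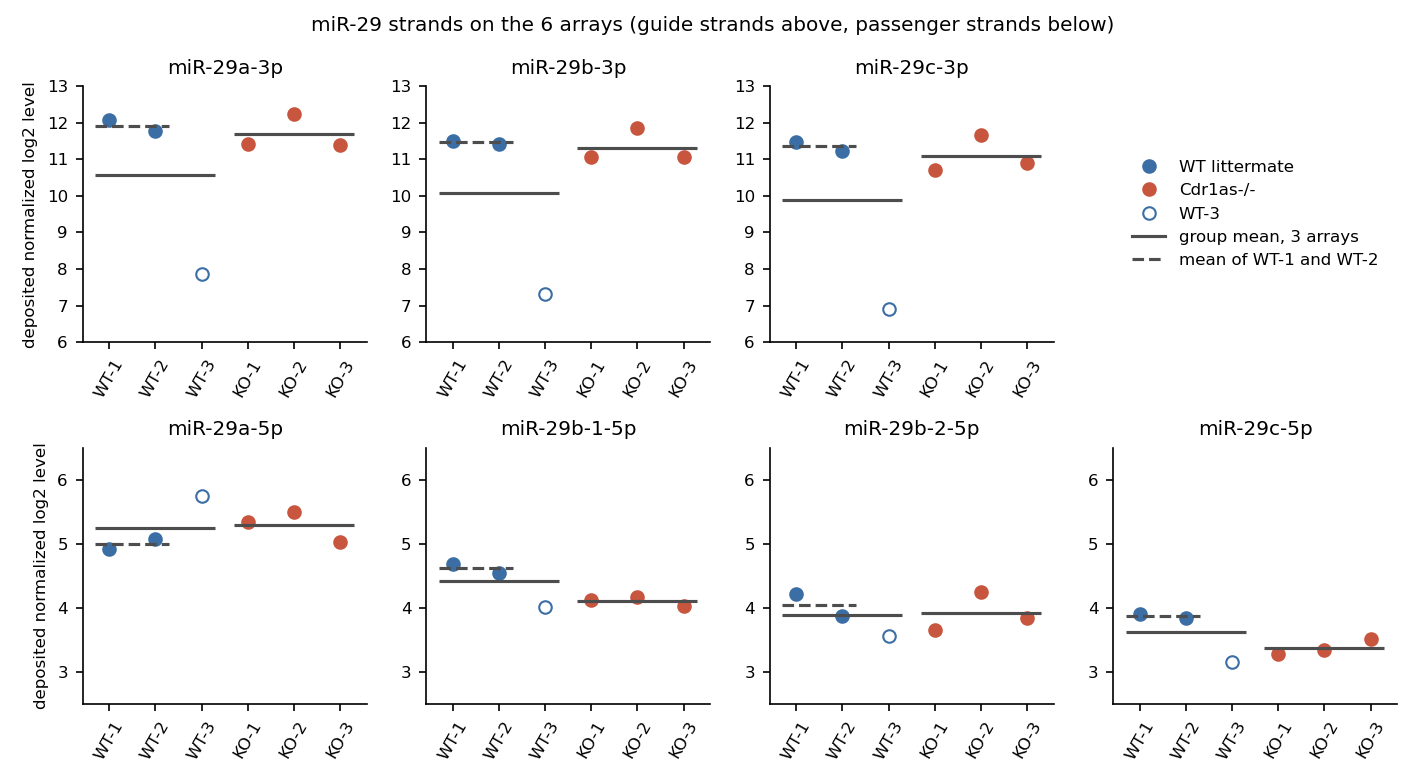
Deposited normalized log2 level (y axis) of each miR-29 strand on each array (x axis), with littermates in blue and Cdr1as-/- mice in red, solid bars for group means and dashed bars for the mean of WT-1 and WT-2. For the 3 guide strands in the upper row WT-3 sits at 6.92 to 7.86 and the other 5 arrays at 10.70 to 12.25, whereas the passenger strands in the lower row stay between 3.15 and 5.74 on all arrays.

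With all 6 arrays the guide strands had higher means in Cdr1as-/- mice, but the difference was as large as its own error. The fit was made with limma over all 1831 miRNAs, with p-values adjusted by the Benjamini-Hochberg method. The log2 difference of miR-29b-3p was 1.24 ± 1.14 (SE, n = 3 and 3), with a 95% confidence interval from -1.54 to 4.02, and the limma adjusted p was 0.99997 for it and every other member. It was 1.12 ± 1.13 for miR-29a-3p and 1.20 ± 1.23 for miR-29c-3p. The SD among the littermates was 2.39 for miR-29b-3p, compared with 0.45 among the knockouts. Exact two-sided permutation of the 6 arrays gave p = 0.8 for each guide, where 3 against 3 cannot give less than 0.1.

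Without WT-3 these differences of the deposited levels changed sign, and their size then depended on the processing. Mean miR-29b-3p was 11.46 in the 2 littermates and 11.32 ± 0.45 (SD, n = 3) in the knockouts, a log2 difference of -0.14 ± 0.30 (SE), or 0.908-fold with a 95% confidence interval from 0.570-fold to 1.45-fold. The difference was -0.23 ± 0.31 for miR-29a-3p, or 0.852-fold with an interval from 0.521-fold to 1.39-fold. It was -0.28 ± 0.32 for miR-29c-3p, or 0.825-fold with an interval from 0.502-fold to 1.35-fold. The limma adjusted p was 0.796, 0.669, and 0.615 in that order, and no difference was larger than the spread between arrays. Other settings on the same 5 arrays gave lower or higher values. Those made from the scanner signal used the brightest probe of each miRNA, whereas a deposited level averages all its probes. At the deposited scaling the brightest probe gave -0.105 (miR-29a-3p), -0.104 (miR-29b-3p), and -0.278 (miR-29c-3p). With the scanner signal scaled to the 75th percentile of detected probes, the differences were -0.85 (miR-29a-3p), -0.82 (miR-29b-3p), and -0.87 (miR-29c-3p), where the median of all miRNAs was -0.14. With the percentile of all probes they were -0.885, -0.861, and -0.905 in the same order, where that median was -0.18. With normexp background correction of the median spot signal, scaled to the percentile of detected probes, they were -0.71, -0.71, and -0.73, where the median was -0.61. With no scaling between arrays they were 0.08, 0.11, and 0.07, where the median was 0.79. Under these settings the limma adjusted p of a guide was 0.313 or more. Leaving out KO-2, the highest knockout, in addition to WT-3 gave -0.51 (miR-29a-3p), -0.40 (miR-29b-3p), and -0.56 (miR-29c-3p), with limma adjusted p of 0.157, 0.244, and 0.125. In the same order, leaving out KO-1 instead gave -0.101, -0.00752, and -0.0873. Leaving out KO-3 instead gave -0.0791, -0.00979, and -0.183. All 5 probes of each guide gave a higher mean in the knockouts with WT-3 and a lower mean without it, although probes of 1 miRNA share their RNA and are not replicates. They differed in size. Without WT-3 single probes ranged from -0.695 to -0.105 (miR-29a-3p), from -0.852 to -0.00403 (miR-29b-3p), and from -0.667 to -0.214 (miR-29c-3p). A deposited level averages them on the linear scale, where bright probes weigh most.

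Measured against the whole array, 0 of 1831 miRNAs (0%) passed an adjusted p below 0.05 in limma with all 6 arrays, and 6 (0.328%) had an unadjusted p below that level, none of them a miR-29 strand. Every knockout lay below every littermate for 2.73% of miRNAs and above for 0.437%, and for 0 of the 7 members. Without WT-3 the counts were 0 (0%) after adjustment and 242 (13.2%) before it, again with 0 of the 7 members. The methods' t-test, likewise adjusted, passed 0 miRNAs with 6 arrays and 0 without WT-3. The median log2 difference of all miRNAs was -0.07 with 6 arrays and 0.09 without WT-3. With 6 arrays the guide strands stood near the upper end of all miRNAs, 99.3% to 99.6% of which had a lower difference, and without WT-3 in the lower part of the distribution, with 24.7% to 33.5% below them.

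**Figure D2:**
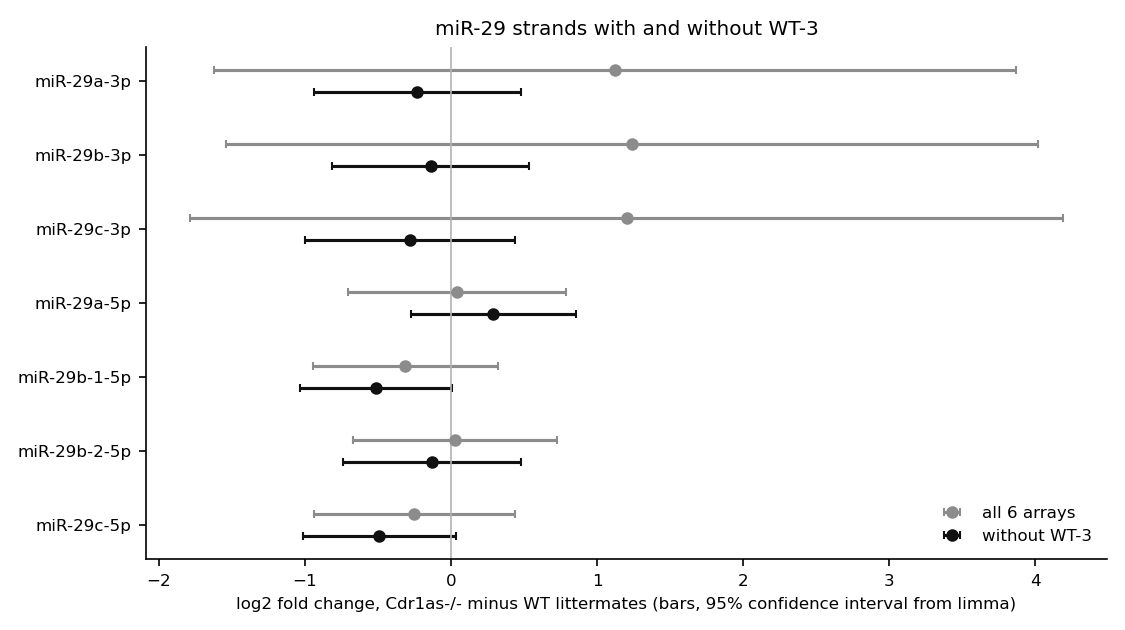
Log2 fold change (x axis, Cdr1as-/- minus littermates, from the deposited levels) of each strand (y axis) with its 95% confidence interval from limma, in gray for all 6 arrays and in black without WT-3. The guide strands move from between 1.12 and 1.24 to between -0.28 and -0.14 when WT-3 is left out, and every interval includes 0.

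The low level of the guides on WT-3 was present in the scaled values and not in the scanner signal from which they were made. Averaged over its 5 probes, the processed signal of miR-29b-3p, from which the scanner software had subtracted the local background, was 1853, 2079, and 1629 in WT-1 to WT-3 and 2635, 2779, and 1433 in KO-1 to KO-3. For miR-29a-3p it reached 2792, 2601, and 2341 in the littermates and 3384, 3652, and 1762 in the knockouts. For miR-29c-3p it reached 1747, 1699, and 1410 in the littermates and 2139, 2385, and 1251 in the knockouts. For each guide the highest array, KO-2, was 1.91-fold to 2.07-fold above the lowest, KO-3, and WT-3 lay between them. The whole set of probes behaved otherwise. Taking the brightest probe of each miRNA, the median miRNA was 25.1-fold brighter on WT-3 than on the mean of WT-1 and WT-2, and 2.24% of miRNAs were not brighter. The guides were among those, at 0.870-fold (miR-29a-3p), 0.790-fold (miR-29b-3p), and 0.784-fold (miR-29c-3p). The guides on WT-3 thus lay within the range of the other arrays before scaling and far below it afterwards, and which of these reflects their RNA in that mouse was not tested.

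The passenger strands followed the bulk of the probes on WT-3. The processed signal of miR-29a-5p, averaged over its probes, was 11.8, 16.4, and 649 in WT-1 to WT-3 and 59.9, 26.9, and 17.2 in KO-1 to KO-3. For miR-29c-5p it reached 6.71, 8.13, and 69.1 in the littermates and 12.6, 6.30, and 6.14 in the knockouts. Against the mean of WT-1 and WT-2, the brightest probe of the passenger strands was 28.8-fold (miR-29a-5p), 9.68-fold (miR-29b-1-5p), 10.4-fold (miR-29b-2-5p), and 7.16-fold (miR-29c-5p) brighter on WT-3. The guide and the passenger of 1 precursor thus differed in what they did on that array, although both passed through the same labelling and scan. The ratio of the guides was not particular to miR-29. By their brightest probe, the 8 epithelial markers described below lay between 0.669-fold (miR-215-5p) and 1.08-fold (miR-141-3p) on WT-3. The immune markers ranged from 0.770-fold (miR-142a-5p) to 32.7-fold (miR-155-5p).

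**Figure D3:**
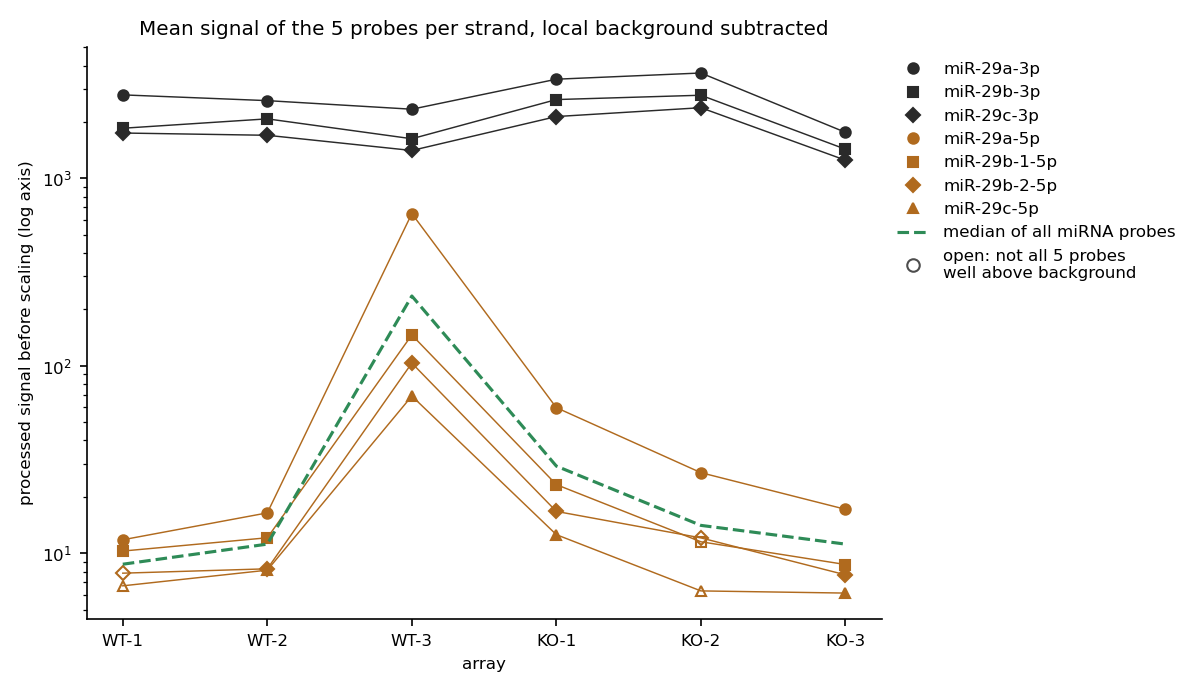
Processed signal before scaling between arrays (y axis, log scale), averaged over the 5 probes of each strand, on each array (x axis), with the guide strands in black, the passenger strands in brown, and the median of all miRNA probes as a dashed green line; open symbols mark arrays where not all 5 probes were well above background. The guides stay within 1251 to 3652 on every array, while the passenger strands and the median peak on WT-3. Heights of different strands come from different probes and are not compared.

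The signal of 3 of the 4 passenger strands was near the background on some arrays. All 5 probes of each guide and of miR-29a-5p were called well above background on all 6 arrays by the scanner software. On KO-2, however, 1 of 5 probes of miR-29b-1-5p, 1 of 5 of miR-29b-2-5p, and 0 of 5 of miR-29c-5p were well above background, and on WT-1 the counts were 5, 4, and 3. A filter that keeps miRNAs with a probe well above background on all arrays of 1 or both groups kept all 7 strands and 1611 of 1831 miRNAs. The levels of these 3 passenger strands on KO-2 thus rest largely on probes near the background.

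No passenger strand passed the test when all 6 arrays were used, and each 95% confidence interval included 0. The log2 differences were 0.04 ± 0.31 (SE) for miR-29a-5p, -0.31 ± 0.26 for miR-29b-1-5p, 0.03 ± 0.29 for miR-29b-2-5p, and -0.25 ± 0.28 for miR-29c-5p. Unlike the guides, the passenger strands had deposited levels on WT-3 within 0.75 of the mean of the other littermates. The deviation was 0.75 for miR-29a-5p and -0.72 to -0.48 for the others.

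Without WT-3, the passenger strands of the Mir29b-1 and Mir29c precursors were the members with the smallest p-values. The levels of mmu-miR-29b-1-5p were 4.69 and 4.54 in WT-1 and WT-2 and 4.12, 4.17, and 4.02 in KO-1 to KO-3. Both littermates lay above all 3 knockouts, and WT-3, at 4.01, lay below them. The log2 difference without WT-3 was -0.51 ± 0.23 (SE), or 0.701-fold, with a limma adjusted p of 0.378. The levels of mmu-miR-29c-5p were 3.90 and 3.83 in the littermates and 3.28, 3.33, and 3.52 in the knockouts. Again both littermates lay above the knockouts and WT-3, at 3.15, below them. The difference was -0.49 ± 0.23, or 0.712-fold, with a limma adjusted p of 0.388. Every knockout lay below every littermate for 19.9% of all miRNAs when WT-3 was left out, so 2 of 7 members in that position is close to what the array shows at large. The exact permutation p was 0.2 for both, which is the smallest that 3 against 2 can give. Neither difference passed the threshold, and with WT-3 included the groups overlapped for both strands. With array quality weights and without WT-3, the adjusted p of miR-29b-1-5p was 0.0476, in a limma fit that called 15.9% of all miRNAs. With no scaling between arrays the differences of the brightest probe without WT-3 were instead 0.19 (miR-29b-1-5p) and 0.05 (miR-29c-5p), below the median of 0.79.

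The other passenger strands overlapped between the groups on either set of arrays. The levels of mmu-miR-29a-5p were 4.92, 5.07, and 5.74 in the littermates and 5.34, 5.50, and 5.02 in the knockouts. Its difference without WT-3 was 0.29 ± 0.25 (SE), with a limma adjusted p of 0.497. The levels of mmu-miR-29b-2-5p were 4.22, 3.87, and 3.56 in the littermates and 3.66, 4.25, and 3.84 in the knockouts. Its difference without WT-3 was -0.13 ± 0.27, with a limma adjusted p of 0.791. Probes of 1 strand disagreed on the direction. Without WT-3, 4 of 5 probes of miR-29a-5p had higher and 1 a lower mean in the knockouts, and for miR-29b-2-5p the split was 2 and 3. All 5 probes of miR-29b-1-5p and 4 of 5 of miR-29c-5p had lower means in the knockouts.

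The difference between the strands of a precursor was compared next, because scaling that adds the same log2 amount to every probe of an array cancels in it. The deposited scaling is not of that kind, since the brightest probes of the strands gave other values from the unscaled signal than from the deposited levels. For Mir29b-1 without WT-3 these were -0.08 and 0.516. Values from the unscaled signal rest on these brightest probes, here and below. The absolute difference joins different probes and has no meaning of its own, so only its change between arrays was read. The log2 difference of 3p minus 5p for the Mir29b-1 precursor was 6.81, 6.88, and 3.32 in WT-1 to WT-3 and 6.94, 7.67, and 7.04 in KO-1 to KO-3. The 3 knockouts were all above the littermates, but KO-1 and WT-2 were nearly level. With 6 arrays the knockout minus littermate value was 1.55 ± 0.996 (SE), the limma adjusted p was 0.994, and the exact permutation p was 0.1, the smallest possible. Of all 717 precursors with both strands in the table, 2.23% had every knockout above every littermate, and 0 (0%) passed an adjusted p below 0.05 in limma, while 5 (0.697%) did so before adjustment. Without WT-3 the value for Mir29b-1 was 0.37 ± 0.34, with an adjusted p of 0.592 in limma and 14.5% of precursors in the same position, and from the unscaled signal it was -0.08. On those arrays 0 of the 4 miR-29 precursors had an unadjusted p below 0.05, compared with 16.3% of all precursors, and 0 precursors passed after adjustment.

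For the Mir29b-2 precursor, which shares its 3p strand with Mir29b-1, the difference was 7.28, 7.55, and 3.76 in the littermates compared with 7.40, 7.59, and 7.22 in the knockouts. Without WT-3 the knockout minus littermate value was -0.01 ± 0.30 (SE), with a 95% confidence interval from -0.71 to 0.69, and from the unscaled signal it was -0.27. The groups overlapped, and the interval is the narrowest of the 4 precursors. For Mir29c the difference was 7.58, 7.40, and 3.77 in the littermates compared with 7.41, 8.32, and 7.37 in the knockouts, and the value without WT-3 was 0.21 ± 0.38, or 0.01 from the unscaled signal. For Mir29a it was 7.14, 6.70, and 2.12 in the littermates compared with 6.08, 6.75, and 6.36 in the knockouts, and the value without WT-3 was -0.52 ± 0.34, with a limma adjusted p of 0.461, or -0.605 from the unscaled signal. This was the largest of the 4 values in size. The brightest probe of each strand alone, however, gave 0.0981 without WT-3 from the deposited levels and 0.11 with quantile normalization. Both values come from the same probes. For most miR-29 strands these settings gave nearly the same differences, so they are not separate results.

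**Figure D4:**
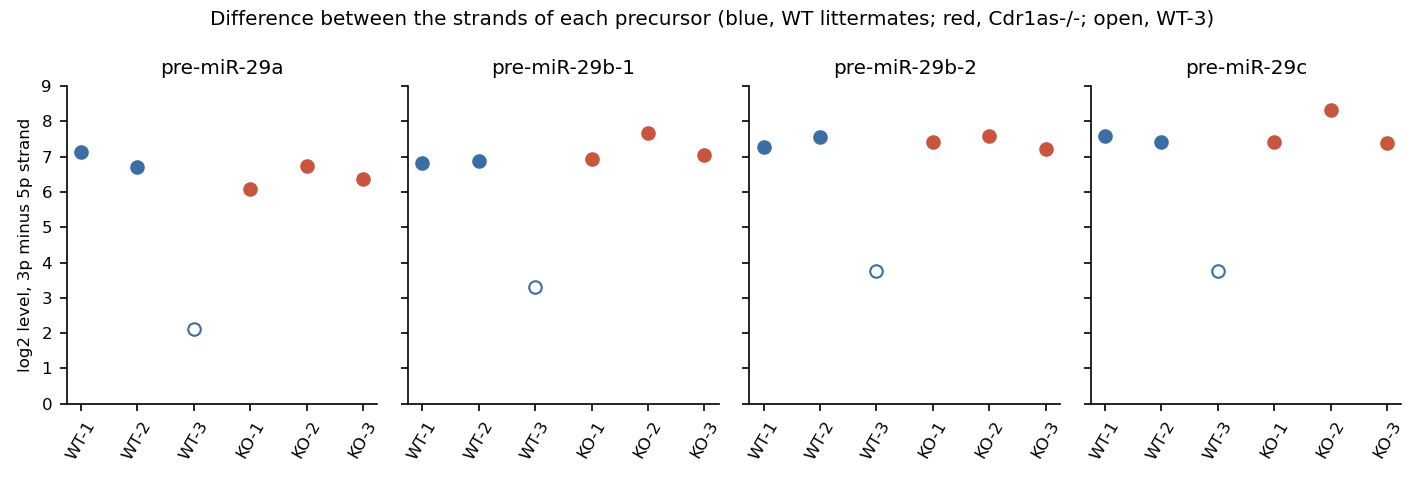
Log2 level of the 3p strand minus that of the 5p strand (y axis) on each array (x axis) for the 4 miR-29 precursors, with littermates in blue, Cdr1as-/- mice in red, and WT-3 open. On WT-3 the difference lies at 2.12 to 3.77, and on the other 5 arrays at 6.08 to 8.32 with the groups next to each other.

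On WT-3 the strand difference deviated from the mean of WT-1 and WT-2 by -4.80 (Mir29a), -3.53 (Mir29b-1), -3.65 (Mir29b-2), and -3.72 (Mir29c). The median over all 717 precursors was -0.22, and 2.23% to 6.28% of precursors lay lower than the miR-29 precursors. With 6 arrays the values for the other 3 precursors were 1.08 ± 1.32 (SE, Mir29a), 1.21 ± 1.02 (Mir29b-2), and 1.45 ± 1.06 (Mir29c), all with a limma adjusted p of 0.994.

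The guide strands were also set against each other within each array, which asks whether 1 paralog changed apart from the rest. The log2 level of miR-29b-3p minus miR-29a-3p was -0.56, -0.35, and -0.53 in WT-1 to WT-3 and -0.37, -0.41, and -0.32 in KO-1 to KO-3. The range over the 6 arrays was 0.24, although each guide itself spanned more than 4 log2 units, and WT-3 did not stand apart. The log2 level of miR-29b-3p minus miR-29c-3p was 0.02, 0.19, and 0.41 in the littermates compared with 0.36, 0.19, and 0.17 in the knockouts. That of miR-29a-3p minus miR-29c-3p was 0.58, 0.53, and 0.94 in the littermates compared with 0.73, 0.59, and 0.49 in the knockouts. The groups overlapped for all 3 differences. The knockout minus littermate values were 0.12, 0.04, and -0.08, with exact permutation p = 0.3, 0.9, and 0.7, and p = 0.9 for each after Benjamini-Hochberg adjustment over the 3. Without WT-3 they were 0.09, 0.14, and 0.05, with exact permutation p = 0.6, 0.4, and 0.8. A difference in response between miR-29b and its paralogs was thus not detected, as none of the 3 was larger than the spread between arrays. The permutation test could not have passed 0.05, since its smallest p is 0.1 for 3 against 3 and 0.2 for 3 against 2. How well the probes separate the guides was not tested either.

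The likeness of other miRNAs to miR-29b-3p was measured as the root mean square difference of log2 levels, each centred on its own mean over the arrays, and is a description over 6 arrays. Of 1830 other miRNAs, miR-29a-3p was closest at 0.092 and miR-29c-3p the third at 0.130, against a median of 1.67. The 5 closest miRNAs outside the family were miR-142a-3p (0.122), an miRNA of blood cells, let-7g-5p (0.154), let-7d-5p (0.157), and let-7e-5p (0.168) of the let-7 family, and miR-26a-5p (0.185). All of them were low on WT-3, which fixes most of this ranking. Without WT-3, miR-29a-3p ranked 5 at 0.086 and miR-29c-3p 11 at 0.109, against a median of 0.407, and the 5 closest outside the family were miR-3970, miR-1970c-3p, miR-542-3p, miR-434-5p, and miR-12203-5p, at 0.064 to 0.091. The passenger strands ranked 356 to 1083 with 6 arrays. Without WT-3, miR-29b-2-5p ranked 39 at 0.146 and the other 3 ranked 433 to 708.

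**Figure D5:**
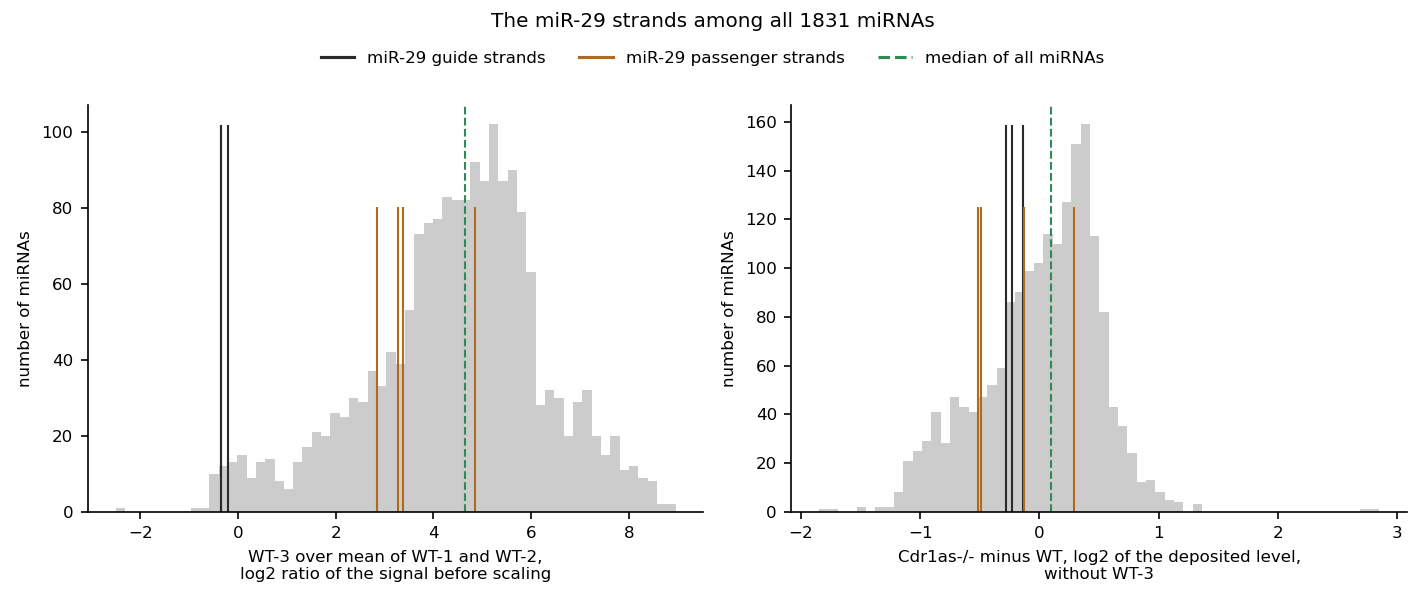
Number of miRNAs (y axis) by the log2 ratio of the signal before scaling on WT-3 to the mean of WT-1 and WT-2 (left, x axis) and by the log2 difference Cdr1as-/- minus littermates of the deposited level without WT-3 (right, x axis), with the guide strands as black lines, the passenger strands as brown lines, and the median as a dashed green line. On the left the guides lie just below a ratio of 1, at 0.784-fold to 0.870-fold, far from the median of 25.1-fold, and on the right the members lie between -0.51 and 0.29, inside the main body of miRNAs.

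Other miRNAs known to act on matrix production, fibrosis, or epithelial plasticity were set beside the family. None of the 21 passed an adjusted p below 0.05 in limma on either set of arrays. With 6 arrays 15 had higher and 6 lower means in Cdr1as-/- mice, with a median log2 difference of 0.59, and 0 had an unadjusted p below 0.05. Without WT-3, 3 had higher and 18 lower means, with a median of -0.24, and 2 had an unadjusted p below 0.05 in the lower direction, where 10.5% of all miRNAs did. The median of all miRNAs was -0.07 with 6 arrays and 0.09 without WT-3. Only part of the list turned from higher to lower means as the miR-29 guides did. Means of miR-30a-5p, miR-30d-5p, miR-30e-5p, miR-155-5p, miR-214-3p, and miR-101b-3p were lower on both sets of arrays. Those of miR-133a-3p, miR-133b-3p, and miR-145a-5p were higher on both. One of the 2 with an unadjusted p below 0.05 was miR-34a-5p, an effector of p53. Its levels were 7.36, 7.03, and 4.14 in the littermates and 5.58, 7.12, and 5.92 in the knockouts. Its log2 difference without WT-3 was -0.99 ± 0.42 (SE), with a limma adjusted p of 0.364. The other was miR-101b-3p, at -0.62 ± 0.27 and the same adjusted p, with 1 of 5 probes well above background on KO-2. For miR-21a-5p, which promotes fibrosis, the difference was -0.05 ± 0.25.

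The miR-148 and miR-152 family, like miR-29, is known to target DNA methyltransferase transcripts. The levels of miR-148b-3p were 8.62, 8.58, and 4.57 in the littermates and 6.77, 8.42, and 7.59 in the knockouts. Without WT-3 all 3 knockouts lay below both littermates, as they did for 19.9% of all miRNAs. The log2 difference was -1.01 ± 0.42 (SE) with a limma adjusted p of 0.364. The differences of miR-148a-3p and miR-152-3p were -0.22 ± 0.39 and 0.01 ± 0.28. With 6 arrays the 3 members had a median of 0.33 and none passed the test.

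Other miRNAs with a Q-PCR measurement beside miR-29b were also compared, and 8 of 9 strands were in the table. The study chose them with these arrays in view, so their directions are no independent evidence. Without WT-3, 6 had lower and 2 higher means in the knockouts, with 2 and 1 past an unadjusted p of 0.05, as were 10.5% and 2.73% of all miRNAs, and 0 past the adjusted one in limma. Among them, miR-222-5p was at -1.04 ± 0.30 (SE) and miR-195a-3p at -0.68 ± 0.25, with limma adjusted p-values of 0.247 and 0.320, and 0 of 5 probes of miR-195a-3p were well above background on KO-2. The 1 strand past the unadjusted threshold in the higher direction was miR-412-3p. Of its probes, 0 of 2 were well above background on WT-1, WT-2, and KO-2, so no size is given for it. The other strand of miR-222, miR-222-3p, was at -0.68 ± 0.32 with 0.388. For miR-195a-5p, miR-7a-5p, and miR-671-5p the differences were -0.79 ± 0.39, -0.77 ± 0.43, and 0.66 ± 0.34. Their limma adjusted p-values were 0.388, 0.397, and 0.388. With 6 arrays none of the 8 had an unadjusted p below 0.05.

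Levels of miRNAs that mark cell types were given beside these results as a description of the tissue. All 8 epithelial markers, among them miR-192-5p and miR-200b-3p, had probes well above background on all 6 arrays. Their summed log2 level reached 17.17, 17.16, and 16.04 in the littermates and 17.05, 17.06, and 17.16 in the knockouts. The sum of the 8 smooth muscle and mesenchymal markers was 11.40, 11.34, and 7.64 in the littermates compared with 12.57, 12.30, and 10.19 in the knockouts. This sum rests mostly on miR-143-3p and miR-145a-5p, which were highest on KO-1, at 12.06 and 10.48, and lowest on WT-3. Others of the list ran differently, such as miR-199a-5p, at 5.72 on KO-1 compared with 6.80 and 6.99 on WT-1 and WT-2, and without WT-3 the means of 4 of the 8 were lower and of 4 higher in the knockouts. The sum of the 6 immune markers was 12.53, 12.59, and 9.25 in the littermates compared with 12.13, 12.86, and 12.03 in the knockouts, in the array order of miR-29a-3p except that WT-1 and WT-2 changed places. The sum of the 3 erythroid markers, which follows blood in the tissue, was 10.08, 8.25, and 6.77 in the littermates compared with 7.61, 8.18, and 7.70 in the knockouts. Without WT-3, 0 of 25 markers of these lists passed the test in limma after adjustment. Some markers were near the background on some arrays. For miR-486a-5p, 2 of 5 probes were well above background on WT-1 and 0 of 5 on KO-2. For miR-133b-3p it was 1 of 3 on both arrays. The part of cell composition in the miR-29 levels was not tested.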

How the data were processed

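Small RNAs of 6 mice, 3 littermates and 3 Cdr1as-/- mice grouped by their labels, were measured on single-colour arrays. The methods of the study call the array miRCURY LNA, but the submitters' processing notes and the scanner files name Agilent Feature Extraction 11.0.1.1. The deposited scanner files hold spot intensity with the local background subtracted by the authors' software and no scaling between arrays. The authors also deposited normalized log2 intensities of 10690 probes and log2 levels of 1831 miRNAs. How these were normalized is not given in the sources used here. The deposited probe values had the same maximum, 16.8, and a median of 4.98 on every array, as quantile normalization would give. For most miR-29 strands, quantile normalization of the scanner signal gave nearly the same difference as the brightest deposited probe. With 6 arrays these were 1.26 and 1.26 for miR-29b-3p, and the exception was miR-29c-5p, at -0.192 and -0.251. Averaging 1 to 5 probes on the linear scale gave each miRNA level within 0.0003 log2 units, which assigned 8437 probes. The authors' fold changes and p-values in that table were not used.

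For tests of the deposited levels, lmFit and eBayes of limma 3.58.1 (R 4.3.3) were used, with Benjamini-Hochberg adjustment over 1831 miRNAs or, for strand differences, 717 precursors. The exact permutation tests were two-sided. Python 3.11.15 with SciPy 1.17.1 and matplotlib 3.10.9 was used for summaries and plots. The fit was tested on simulated data of 1831 miRNAs, of which 100 were changed 2-fold and another 100 4-fold. With 6 arrays 8% of 2-fold and 60% of 4-fold changes passed the adjusted threshold, and without WT-3 71% and 100%. So many true changes ease the adjusted threshold, so these shares do not hold for the real arrays. There the smallest limma adjusted p without WT-3 was 0.158. The simulation gave all arrays equal spread, which WT-3 does not have. Precision is set by the number of arrays. The study gives 3 animals per group, and p-values measure the spread between these samples.

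The members, lists, and tests were chosen with earlier results of these data known. Named miRNAs were the 7 members, the listed miRNAs, and the 5 others closest to miR-29b-3p. Alternatives covered scaling, background correction, test, blocks, and left-out arrays. Those that started from the scanner signal used only the brightest probe of each miRNA. Replicate numbers were not treated as pairs.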

Additional observations from a re-analysis of the deposited data

How the results depend on the processing

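No alternative gave a miR-29 strand an adjusted p below 0.05 with 6 arrays, and without WT-3 only array quality weights did, for miR-29b-1-5p (log2 difference -0.563, limma adjusted p = 0.0476 against 0.378). The lowest adjusted p over all members and alternatives was 0.0970 with 6 arrays. The cause of the changes listed here was not tested. Values are log2, knockout minus littermate, unless given as counts. Settings of percentile, quantile, normexp, no scaling, and TRF scaling differ from the deposited levels also in using only the brightest probe. For most strands quantile normalization gave nearly the values of the brightest deposited probe, so these settings are not separate results.

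With 6 arrays, array quality weights turned the guide strands to -0.326 (29a), -0.231 (29b), and -0.325 (29c), miR-29b-2-5p to -0.146, and the strand differences of Mir29a and Mir29b-2 to -0.505 and -0.0134. miR-29a-5p became -0.378 with the 75th percentile of detected probes, -0.273 with that of all probes, -0.19 with quantile normalization, -0.227 with normexp, -0.928 without scaling, -0.797 with scaling by the TRF signal, -0.192 with the brightest deposited probe, and -0.121 with the scan as a block. miR-29b-2-5p became -0.202, -0.0973, -0.0552, -0.753, -0.621, and -0.0551 under these settings in the same order, normexp and the scan left aside, and -0.228 with the array row as a block. Normexp turned miR-29b-1-5p to 0.146 and miR-29c-5p to 0.337. The row in the scanner header stands in for the slide that was planned as a block, and the block compares KO-1 alone with the littermates.

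Without WT-3, values without scaling and with TRF scaling were 0.0848 and 0.201 (29a-3p), 0.109 and 0.225 (29b-3p), 0.0653 and 0.181 (29c-3p), 0.188 and 0.303 (29b-1-5p), 0.382 and 0.498 (29b-2-5p), and 0.0536 and 0.169 (29c-5p), where the medians of all miRNAs were 0.79 and 0.90. With the percentiles of detected and of all probes and with normexp, the guides were between -0.905 and -0.707. miR-29a-5p became -0.242, -0.281, -0.201, and -0.506 with the percentiles of detected and of all probes, quantile normalization, and normexp, and -0.203 with the brightest deposited probe. Strand differences became 0.106 (quantile) and 0.0981 (brightest probe) for Mir29a, -0.0781 for Mir29b-1 with either percentile or no scaling, and 0.24 (quantile), 0.0136 (normexp), and 0.231 (brightest probe) for Mir29b-2. The guide difference 29b minus 29a became -7.31e-06 with quantile normalization.

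Counts of miRNAs at an unadjusted p below 0.05 with 6 arrays were 6 as reported, and 1 (percentile of detected probes), 0 (normexp, no scaling, and TRF scaling), 3 (brightest probe, replicate block, and scan block), 21 (the methods' t-test), and 510 (array quality weights). Without WT-3 they were 242 as reported and 7 (normexp), 394 (TRF scaling), and 660 (array quality weights), and adjusted calls were 0 as reported, 1 (percentile of all probes), 1 (intensity trend), and 291 (array quality weights).

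Leaving out each array in turn, with 6 arrays, gave ranges of -0.231 to 1.87 (29a-3p), -0.139 to 1.95 (29b-3p), -0.278 to 2 (29c-3p), -0.121 to 0.292 (29a-5p), -0.136 to 0.198 (29b-2-5p), -0.522 to 1.99 (strands of Mir29a), -0.00944 to 1.88 (strands of Mir29b-2), -0.0578 to 0.139 (29b minus 29c), -0.156 to 0.0476 (29a minus 29c), and 1 to 242 unadjusted calls. Without WT-3 the ranges were -0.512 to -0.0791 (29a-3p), -0.399 to -0.00752 (29b-3p), -0.564 to -0.0873 (29c-3p), -0.305 to 0.0462 (29b-2-5p), -0.145 to 0.126 (strands of Mir29b-2), -0.0968 to 0.377 (strands of Mir29c), -0.0153 to 0.199 (29b minus 29a), -0.0138 to 0.104 (29a minus 29c), 73 to 634 unadjusted calls, and 0 to 223 adjusted calls, the highest without KO-2, among which no miR-29 strand was.

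Whether replicate numbers pair the samples could not be decided from the values. Deviations of WT-1 and KO-1 correlated at -0.759, of WT-2 and KO-2 at 0.564, and of WT-3 and KO-3 at -0.224. However, WT-1 and WT-2 hardly differed in this, at -0.759 and -0.805 with KO-1 and at 0.560 and 0.564 with KO-2. The largest correlation in size was 0.811, between WT-3 and KO-1. As a block, the replicate numbers left miR-29b-3p at 1.24 with 6 arrays and -0.00979 without WT-3 and changed no call of a member. They turned the strand difference of Mir29b-2 without WT-3 to 0.0826. Signal limits miR-29b-1-5p, miR-29b-2-5p, and miR-29c-5p, which were near background on KO-2.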
